A study of Mus musculus with 6 samples.

Results

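Transcripts that overlap the exons of protein-coding genes were described here, within a set of long non-coding RNA (lncRNA) transcripts assembled from mouse pancreatic islets. Islets are small groups of hormone-producing cells, most of them beta cells, which make insulin. A transcript was taken when its genomic interval shared at least 1 base with an exon of a protein-coding gene in the GENCODE M21 annotation and no base with an exon of an annotated non-coding gene. Of 3093 deposited transcripts, 285 (9.21%) met both conditions, over 264 coding genes. Another 2054 lay wholly in introns, 235 touched an exon of a non-coding gene, 26 touched exons of other gene types only, and 493 lay outside annotated genes.

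Islets came from C57BL/6 mice after 8 weeks on normal chow (NCD) or on the diet abbreviated HFD, which the series' text calls high-fed, with 3 libraries per diet. Total RNA was extracted with Trizol and made into Illumina TruSeq libraries. All 6 samples share the strain and the tissue, and no source used here gives the mice's age or sex. Samples of db/db mice, named in the series' title, were not analysed here.

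Each transcript carried 1 value per diet, in FPKM, a fragment count scaled to transcript length and to library size. The 3 libraries of a diet stand behind each value, but no value per library was given, so there is no replicate error and no test between diets for any value below. Differences are described by size only, as the log2 ratio of (HFD FPKM + 0.1) over (NCD FPKM + 0.1), and "2-fold" means at least 2-fold on that scale. The added 0.1 FPKM shrinks the ratio of low transcripts. In whole-islet RNA, fewer cells of a type and less RNA per cell cannot be told apart.

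An mRNA runs from a first exon, which holds the 5′ untranslated region (UTR) and usually the start codon, through inner exons to a last exon that holds the stop codon and the 3′ UTR. Several kinds of transcript are known to overlap such exons without being the mRNA: RNA started in either direction around the promoter, antisense RNA, transcripts that keep an intron, and RNA that runs past the polyadenylation site. The table gives neither the strand nor the exon structure of its transcripts, so a transcript over an exon cannot be told here from unspliced or alternative RNA of the gene itself. A gene symbol below therefore says where a transcript lies and not that the gene's mRNA was measured.

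The sequences where these transcripts met the genes' starts are shown for the hosts with the 2 lowest and the 2 highest log2 ratios among transcripts that touched a promoter window. The window is the 250 bases before a gene's annotated start, from RefSeq on GRCm38, printed 5′ to 3′ on the strand of the gene, which is the minus strand for all 4. Capitals mark matches on either strand. The motifs searched were the GC box, spelled GGGCGG. The CCAAT box was searched as those 5 letters. The TATA box was spelled TATAAA. A short form of the heat shock element was spelled GAANNTTC or, in its other arrangement, TTCNNGAA. A match describes the letters and is not a bound site. The windows lie at chr17:34959239-34959488 (Hspa1b), chr4:40703195-40703444 (Aptx), chr19:6858212-6858461 (Ccdc88b) and chr7:105569319-105569568 (Apbb1).
Hspa1b: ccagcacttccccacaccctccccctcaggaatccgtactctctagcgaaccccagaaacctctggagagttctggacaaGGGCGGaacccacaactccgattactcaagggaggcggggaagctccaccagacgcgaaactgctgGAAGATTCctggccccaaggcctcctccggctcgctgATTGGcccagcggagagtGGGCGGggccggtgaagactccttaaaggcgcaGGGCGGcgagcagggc
Aptx: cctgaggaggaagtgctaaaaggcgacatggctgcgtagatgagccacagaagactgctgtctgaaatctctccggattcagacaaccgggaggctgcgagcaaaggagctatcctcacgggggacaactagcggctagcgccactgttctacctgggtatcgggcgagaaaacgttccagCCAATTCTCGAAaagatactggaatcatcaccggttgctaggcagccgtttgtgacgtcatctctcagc
Ccdc88b: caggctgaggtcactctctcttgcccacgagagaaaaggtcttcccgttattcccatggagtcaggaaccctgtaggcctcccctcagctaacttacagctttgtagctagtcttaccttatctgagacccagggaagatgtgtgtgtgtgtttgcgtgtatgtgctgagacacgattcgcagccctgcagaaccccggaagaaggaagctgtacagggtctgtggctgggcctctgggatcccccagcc
Apbb1: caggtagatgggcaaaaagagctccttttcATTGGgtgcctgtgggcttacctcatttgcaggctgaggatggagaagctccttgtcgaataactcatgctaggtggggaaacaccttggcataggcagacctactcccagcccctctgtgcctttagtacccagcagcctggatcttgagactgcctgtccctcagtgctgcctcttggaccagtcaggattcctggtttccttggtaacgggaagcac
Hspa1b, which encodes the stress-inducible chaperone Hsp70, held 3 GC boxes, 1 CCAAT match, 1 heat shock match and 15 CG dinucleotides. Aptx, which encodes the DNA repair protein aprataxin, had 1 CCAAT match that overlapped 1 heat shock match. The 2 hosts with higher HFD values had fewer CG dinucleotides, 6 for Ccdc88b, which held none of the motifs, and 2 for Apbb1, which had 1 CCAAT match.

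Coding bases inside 4 of the transcripts are shown because they carry either a start codon or letters shared with other genes. The Uhrf1bp1l piece (chr10:89745245-89745288, plus strand) and the Ccdc88b piece (chr19:6858080-6858139, minus strand) open with the start codon, in capitals. They come from the first-exon transcripts with the lowest and the highest log2 ratio among those that covered 30 to 300 coding bases including a start codon. In the Tmed4 piece (chr11:6271654-6271800, minus strand) and the Gpr137b piece (chr13:13359315-13359418, minus strand), capitals mark bases lying in 31-base words that also occur in annotated transcripts of other genes.
Uhrf1bp1l: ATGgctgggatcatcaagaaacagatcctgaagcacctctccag
Ccdc88b: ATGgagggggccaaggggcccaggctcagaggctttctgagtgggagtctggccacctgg
Tmed4: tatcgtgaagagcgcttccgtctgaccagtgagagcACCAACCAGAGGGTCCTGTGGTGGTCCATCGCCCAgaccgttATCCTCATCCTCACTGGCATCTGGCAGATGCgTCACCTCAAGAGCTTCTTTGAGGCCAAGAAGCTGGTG
Gpr137b: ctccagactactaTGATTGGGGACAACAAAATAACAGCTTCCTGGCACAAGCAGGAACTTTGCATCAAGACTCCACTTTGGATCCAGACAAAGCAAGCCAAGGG
Of the printed letters, 103 bases (70.1%) of the Tmed4 piece and 91 bases (87.5%) of the Gpr137b piece were shared in this way. Over all touched exon bases, 8.07% of the 161 words of the Tmed4 transcript and 75.6% of the 308 words of the Gpr137b transcript were shared. These 2 transcripts had the highest NCD values of all 285, and the part of reads from other genes in those values was not tested.

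Across the 285 transcripts the median was 2.00 FPKM in NCD and 1.59 FPKM in HFD, against 2.53 and 1.42 FPKM over the whole table. HFD values were lower than NCD values for 199 transcripts (69.8%), beside 80.0% of the table, and higher for 86 (30.2%), beside 20% of the table. The median log2 ratio was -0.41 (quartiles -0.88 and 0.14), against -0.82 for the table. At least 2-fold lower in HFD were 60 transcripts (21.1%), beside 41.9% of the table. At least 2-fold higher were 18 (6.32%), beside 6.27% of the table. The transcripts over coding exons thus held a smaller share of 2-fold lower values than the table and a like share of 2-fold higher ones. With both groups centred on the table's median, the split turned: 18 transcripts were 2-fold lower and 69 were 2-fold higher, with 15.0% and 15.9% of the table past those limits. The direction of any median between -0.82 and 0 therefore depends on that scaling, and what follows gives values as deposited unless said otherwise.

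Of the other places compared, only introns had a median well below that over coding exons. Transcripts wholly in introns had a median log2 ratio of -0.98, with 48.8% at least 2-fold lower and 4.43% at least 2-fold higher. Transcripts touching an exon of a non-coding gene had a median of -0.42, with 25.5% and 7.23%, close to the values over coding exons. Those outside annotated genes (493) also had a median of -0.42, with larger 2-fold shares, 34.1% lower and 13.2% higher. A median near -0.41 was thus not particular to coding exons. In 39 host genes the table held both transcripts over an exon (43 in all) and transcripts wholly in an intron (55). The median over exons lay above that in introns in 25 of these genes and below it in 14. The median difference was 0.44 on the log2 scale (quartiles -0.39 and 1.06), with medians of -0.49 over exons and -0.76 in introns.

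**Figure D1:**
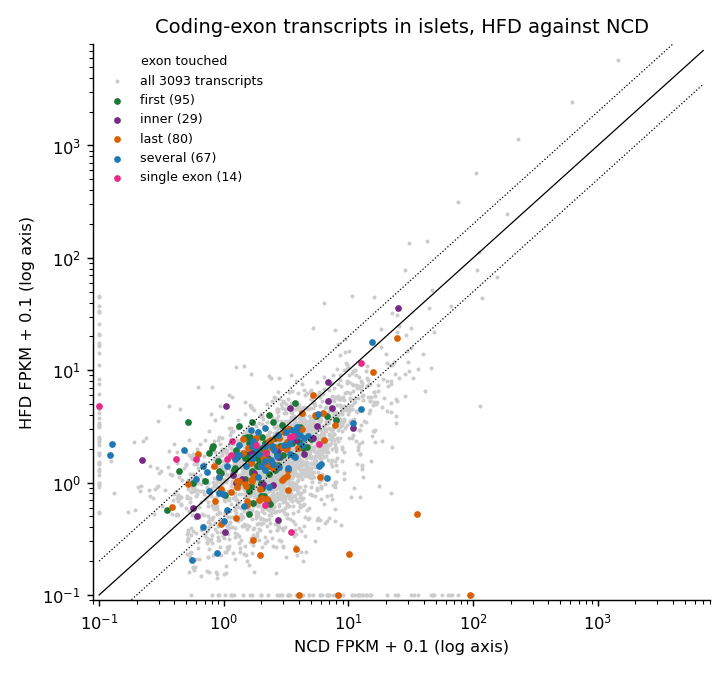
HFD against NCD values, both as FPKM + 0.1 on log axes, for transcripts over coding exons (coloured by exon touched) and for all transcripts of the table (grey), with diagonal lines at equal values and at 2-fold differences. Of the 285 transcripts, 60 lie at least 2-fold below the line of equality and 18 at least 2-fold above it.

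Most of these transcripts touched exons with only a small part of their interval. Exon bases made up a median of 16.0% of the interval, under 10% in 113 transcripts and 50% or more in 78, and 32 lay wholly within an exon. In 252 transcripts neither end fell on an exon border, in 27 transcripts 1 end did and in 6 both did. The shortest interval spanned 202 bases, the median interval 2838 and the longest 235610, and 23 transcripts touched exons of 2 or more coding genes.

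By the exon touched, first and last exons differed in the share of 2-fold lower values over all spans. Among transcripts of 1 to 10 kb that share differed little, while the share lower by any size still differed. Each transcript was classed by the exons it touched in 1 representative transcript of its host gene. For 95 transcripts over a first exon, the median FPKM was 1.80 in NCD and 1.61 in HFD, with 57 lower and 38 higher in HFD. The median log2 ratio was -0.25, and 12 (12.6%) were 2-fold lower and 7 were 2-fold higher. For 80 transcripts over a last exon, medians were 2.19 and 1.33 FPKM, with 68 lower and 12 higher. Their median log2 ratio was -0.50, with 24 (30%) 2-fold lower and 1 2-fold higher. Both classes remained below the 41.9% of the table that was 2-fold lower.

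Inner-exon transcripts had a median close to that over last exons. The 29 over an inner exon had medians of 2.31 and 1.59 FPKM and a median log2 ratio of -0.51, with 8 2-fold lower and 2 2-fold higher. The 67 over several exons had medians of 2.04 and 1.67 FPKM and a median log2 ratio of -0.42, with 13 and 4. For 14 transcripts the representative host transcript had a single exon, and 7 were lower and 7 higher, at a median of 0.06. With the exon rank read in the longest transcript of the host, or over every coding transcript, the last of these medians was -0.14, so its direction depends on the annotation choice.

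Exon classes also differed in length and base composition. Median spans were 3501 bases over first exons, 888 over inner exons and 1246.5 over last exons. The GC content of the touched exon bases had medians of 66.2% for first exons, 49.6% for inner exons and 42.3% for last exons. Among transcripts spanning 1 to 10 kb, the median log2 ratio was -0.22 over 61 first exons and -0.29 over 35 last exons, a smaller gap than over all spans. At least 2-fold lower among these were 6 first-exon transcripts (9.84%) and 4 last-exon transcripts (11.4%). Lower in HFD by any size were 36 of the 61 (59.0%) and 28 of the 35 (80%), beside 80.0% of the table. Over all spans these shares were 60% and 85%. Transcripts under 1 kb (77) had a median of -0.58, those of 1 to 10 kb (141) -0.23 and those of 10 kb or more (67) -0.59. Across 268 transcripts with at least 50 exon bases, GC content and log2 ratio had a Spearman correlation of 0.20, given as a description because the points share the same 2 value columns. Split into 3 parts by GC content, these transcripts had medians of -0.49 at low, -0.50 at middle and -0.16 at high GC. The part of base composition in the differences between exon classes was not tested.

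The part of the mRNA touched showed a like pattern. Transcripts sharing bases with coding sequence (155) had a median log2 ratio of -0.33, with 28 2-fold lower and 11 2-fold higher. Those touching a 5′ UTR but no coding sequence (58) had a median of -0.23, with 10 and 6. Those touching a 3′ UTR alone (50) had a median of -0.56, with 14 2-fold lower and 0 2-fold higher, and 44 of them were lower in HFD. The 22 that touched only an exon of a non-coding isoform of the host had a median of -0.79, with 8 and 1. A start codon lay inside 66 transcripts, at a median of -0.10 with 36 lower and 30 higher. A stop codon lay inside 49, at a median of -0.42 with 33 lower and 16 higher.

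Of the positions along the host, intervals extending past the 5′ end were closest to even between diets. By position along the host, 68 reached past the 5′ end, and their median log2 ratio was -0.12, with 38 lower, 30 higher, 6 2-fold lower and 6 2-fold higher. The 164 inside the gene had a median of -0.42, with 38 2-fold lower and 10 2-fold higher. The 50 that ran past the 3′ end had a median of -0.58, with 43 lower, 7 higher, 14 2-fold lower and 2 2-fold higher. Among first-exon transcripts alone, the 57 that reached past the 5′ end had a median of -0.12 and the 38 that stayed inside the gene had a median of -0.45. Among last-exon transcripts, the 31 that ran past the 3′ end had a median of -0.51 and the 49 inside had a median of -0.50.

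**Figure D2:**
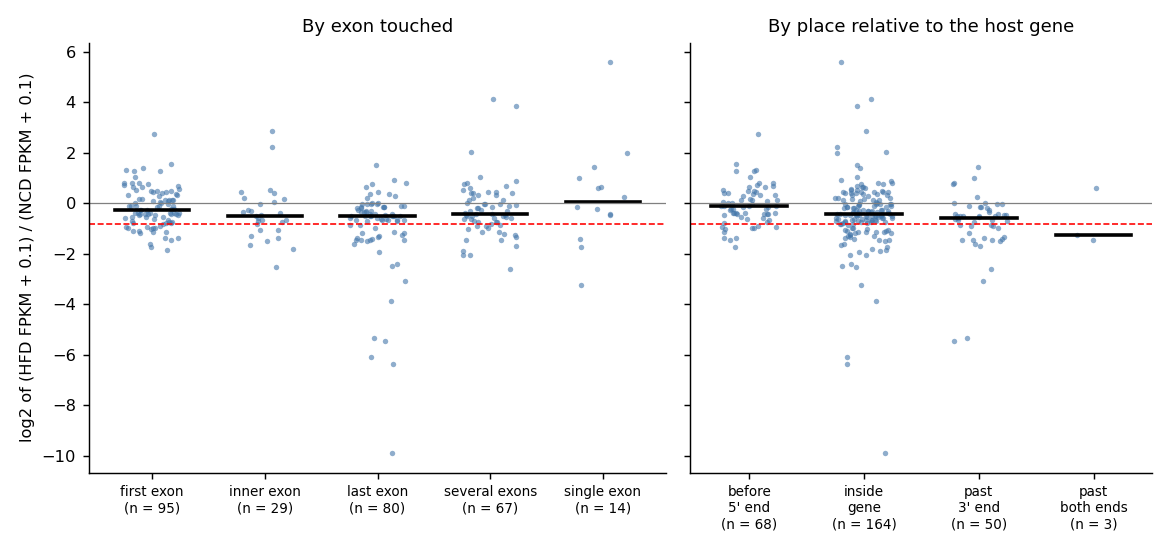
Log2 ratio of HFD over NCD for each transcript, by exon class and by position along the host gene, with the median of each class marked and the table's median shown as a dashed line. Medians are -0.25 over first exons and -0.50 over last exons, with 0.06 for single-exon hosts the highest and -0.51 over inner exons the lowest. By position they are -0.12 past the 5′ end, -0.58 past the 3′ end and -1.27 for the 3 transcripts past both ends.

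The 68 transcripts past the 5′ end covered 2 to 45382 bases before the gene, with a median of 2087.5, and 51 of them covered more than 1 kb there. Inside the gene they covered 12 to 235549 bases, with a median of 616, and 46 covered at most 1 kb.

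**Figure D3:**
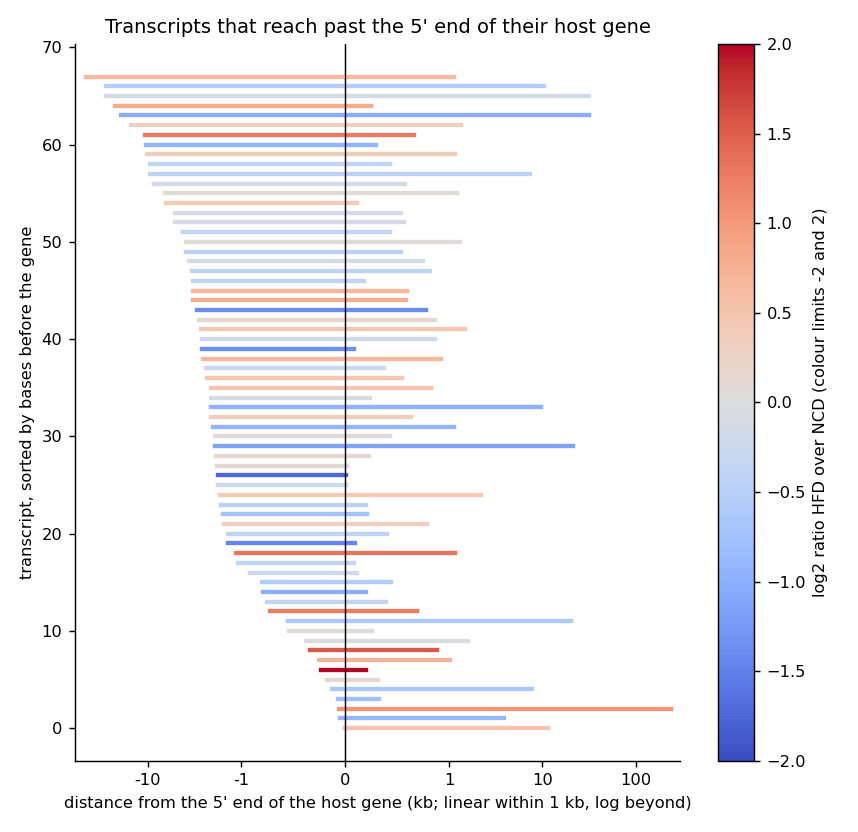
Extent of the 68 transcripts that reached past the 5′ end of their host gene, as distance in kb from the gene's 5′ end (linear within 1 kb, log beyond), each line being 1 transcript and coloured by its log2 ratio. Bases before the gene range from 2 to 45382 with a median of 2087.5, and higher and lower ratios occur at short and long distances.

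Of the 285 transcripts, 224 had a RefSeq promoter window for their host, and 65 touched it, over 62 windows. Transcripts that touched the window had a median log2 ratio of -0.12, with 8 2-fold lower and 6 2-fold higher. The 159 that did not touch it had a median of -0.49, with 38 and 8. The windows of both groups of hosts were rich in CG, with medians of 16 and 17 CG dinucleotides against 6 over all 32817 windows. The GC box occurred in 51.6% of touched and 58.7% of untouched windows, against 32.7% of all windows. CCAAT occurred in 40.3%, 40.7% and 33.8%, and TATAAA in 3.23%, 5.33% and 12.4%. The heat shock form occurred in 22.6% of touched windows, in 8.00% of those not touched and in 12.8% of all windows. A touched host was given a window that its transcript overlapped, which can belong to an alternative start. An untouched host was given the window nearest its gene's start, so the 2 sets were chosen by unlike rules. Across the 65 transcripts, the number of CG dinucleotides in the window had a Spearman correlation of -0.35 with the log2 ratio, given as a description.

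Transcripts with values well above 0 in HFD and near 0 in NCD were few. Csmd3, a very large transmembrane protein of the nervous system, hosted 2 overlapping transcripts of 1 locus over its exons 28 to 32 of 71 (chromosome 15, 47800883 to 47858717). Their values were 0.0262 FPKM in NCD and 2.11 in HFD for one and 0.0220 and 1.67 for the other, at log2 ratios of 4.13 and 3.86. Fam83g, whose product binds casein kinase 1 and acts in BMP signalling, had 0.121 FPKM in NCD and 1.504 in HFD (2.86), over exon 2 of 5. Ccdc88b, a coiled-coil protein of immune cells, had 0.419 and 3.33 FPKM (2.73) in a 441-base transcript that covered its start codon, printed above.

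Among transcripts of at least 400 bases and above 0 in both diets, the next 4 ratios lay over different exon classes. These were an inner exon, several exons, a single-exon host transcript and a first exon. Apbb1, an adaptor that binds the amyloid precursor protein, had 0.933 FPKM in NCD and 4.68 in HFD (2.21) over exon 2 of 15, and its second transcript from the same locus had a ratio of 0.78. The Apbb1 promoter window printed above belongs to a RefSeq start that lies within the longer GENCODE gene. Slc35e1, of the nucleotide-sugar transporter family, had 0.376 and 1.84 FPKM (2.03). Ginm1, a glycosylated membrane protein, had 0.310 and 1.51 FPKM (1.98), and Rab34, a small GTPase of cilia, had 0.337 and 1.17 FPKM (1.54). With 1 FPKM added in place of 0.1, the last pair gave log2 ratios of 0.94 and 0.70 and passed no longer as 2-fold.

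The 8 lowest ratios were taken among transcripts of at least 400 bases and above 0 in both diets. Of these 8, 3 lay over a last exon (Epb41l4a, Mto1 and Celf3), 3 over several exons, 1 over an inner exon and 1 over a single-exon host transcript. The Epb41l4a and Hpf1 transcripts touched only an exon of a non-coding isoform, with no coding sequence or UTR. Some shorter transcripts had lower ratios, such as Tmed4 (-9.89), Ccdc117 (-6.37) and Gpr137b (-6.07), each over a last exon. Among transcripts of at least 400 bases and above 0 in both diets, Epb41l4a, a FERM-domain protein, was lowest, with 3.71 FPKM in NCD and 0.158 in HFD (-3.89). Hpf1, a partner of PARP enzymes in DNA repair, had 3.33 and 0.260 FPKM (-3.25), and Mto1, which modifies mitochondrial tRNA, had 1.84 and 0.127 FPKM (-3.09). Mt1, the metal-binding metallothionein 1, had 6.68 FPKM in NCD and 1.00 in HFD (-2.62), in a transcript that took in all 3 exons and ran past the 3′ end. Pea15a, a phosphoprotein with a death effector domain, had 2.60 and 0.368 FPKM (-2.53). Celf3, an RNA-binding splicing regulator, had 1.62 and 0.210 FPKM (-2.47) over its 3′ UTR. Zmym1, a zinc finger protein, had 5.72 and 1.29 FPKM (-2.06), and Smg1, the kinase of nonsense-mediated decay, had 5.91 and 1.36 FPKM (-2.04).

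Among the highest levels, 4 differed little between diets. Sfi1, a centrosomal protein, had 25.03 FPKM in NCD and 35.7 in HFD (0.51). Rint1, an endoplasmic reticulum to Golgi tethering protein, had 24.3 and 19.1 FPKM (-0.34), Eif1a, a translation initiation factor, 15.2 and 17.5 FPKM (0.21), and Zrsr1, a splicing factor relative, 12.6 and 11.4 FPKM (-0.14). Fzd3, a Wnt receptor, had 15.7 and 9.56 FPKM (-0.71), from a transcript wholly within its 3′ UTR. Cilp, a matrix protein of cartilage, had 12.4 and 4.45 FPKM (-1.46), in a transcript of 67826 bases that covered all 10 exons and ran past both ends of the gene. Gpr137b, a lysosomal membrane protein, had 35.01 FPKM in NCD and 0.421 in HFD (-6.07) in a 338-base transcript over its last exon.

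The 4 transcripts listed at 0 in 1 diet spanned 202 to 582 bases. Tmed4, a cargo receptor of the early secretory pathway, had 94.9 FPKM in NCD and was listed at 0 in HFD, in a transcript of 202 bases. Ccdc117 had 8.15 FPKM in NCD and was listed at 0 in HFD, and Rtn2, a reticulon of the endoplasmic reticulum, had 3.90 FPKM and was listed at 0. Sdhaf1, an assembly factor of succinate dehydrogenase, was listed at 0 in NCD and had 4.69 FPKM in HFD, in 267 bases. The Tmed4 and Sdhaf1 transcripts were shorter than the mean fragment fitted below. Rtn2 was named after its values were seen, and so was Tcof1, a nucleolar protein with 9.99 FPKM in NCD and 0.133 in HFD (-5.44).

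**Figure D4:**
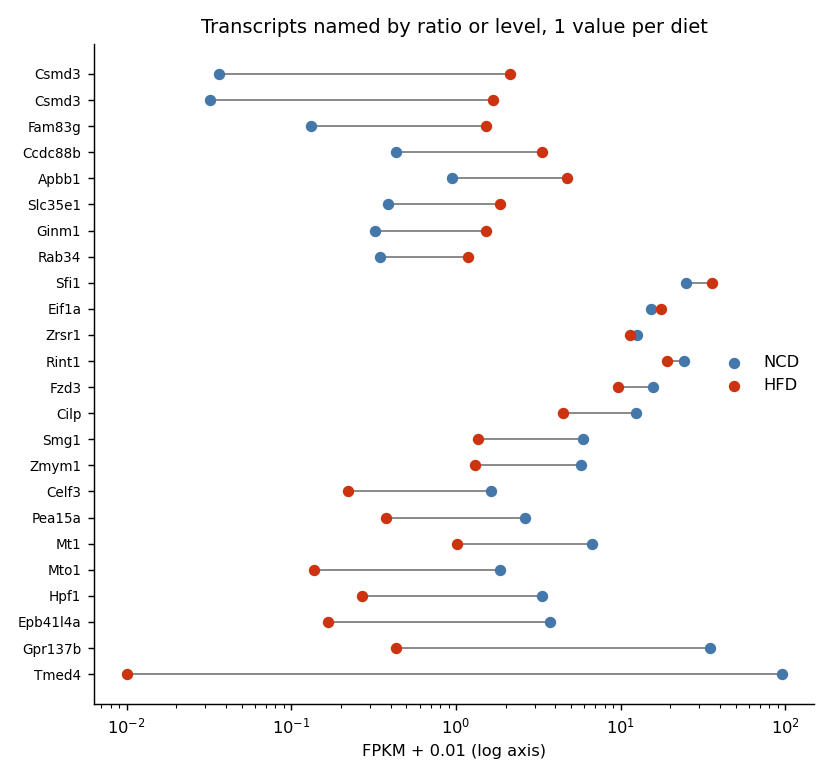
FPKM + 0.01 in NCD (blue) and in HFD (red) on a log axis for the named transcripts with the highest and lowest ratios and the highest levels, each line joining the 2 values of 1 transcript. Before that addition the values of Csmd3 are 0.0262 and 2.11 for the higher transcript, those of Epb41l4a 3.71 and 0.158, and those of Sfi1 25.03 and 35.7.

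Host genes were grouped by function from symbol patterns, into 19 families, of which 18 had at least 3 transcripts. Across families the 2-fold counts are read beside the table's 41.9% lower and 6.27% higher. Some symbols matched a pattern without the gene having that function, and medians without the hosts set aside for this are given where they differ. Other hosts with a listed function matched no pattern for it. Each family count and median therefore covers the matched symbols only and not every host with that function. HFD values below NCD values are read beside the 80.0% of the table that was lower.

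Hosts matched as transcription factors other than zinc finger proteins had lower HFD values in 11 of 11 transcripts, beside 80.0% of the table. Their median log2 ratio was -0.73. Of these 11, 5 (45.5%) were 2-fold lower, a share near the table's 41.9%. One of these hosts, Gatad2b, belongs to a chromatin repressor complex, and without it the median of 10 was -0.87. Elf1, an ETS factor, had 5.83 FPKM in NCD and 1.01 in HFD, Meis2, a homeobox factor, 2.14 and 0.605, and Foxo3, a forkhead factor of insulin signalling, 1.43 and 0.582. Isl1, a homeobox factor of islet endocrine cells, had 7.65 and 3.15 FPKM (-1.26). Hosts matched by symbol as zinc finger factors (7 transcripts, median -0.31) had 6 lower and 0 past 2-fold. Zmym1, the zinc finger protein named above at -2.06, was not among the matched symbols. After centring on the table's median, the transcription factor median was 0.0907.

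Hosts for protein folding and stress had a median of -1.38 over 5 transcripts, with 3 2-fold lower. Ddit3, the stress factor CHOP, had 3.18 FPKM in NCD and 0.760 in HFD (-1.93), Hspa1b had 2.03 and 0.531 (-1.75), and Dnaja4, an Hsp40 co-chaperone, had 1.89 and 0.665 (-1.38). Only 13 exon bases were touched in Hspa1b, and the Ddit3 transcript touched only an exon of a non-coding isoform. Sod1, superoxide dismutase, had 1.58 and 1.59 FPKM, and P4hb, protein disulfide isomerase, had 1.14 and 1.26. The family median stayed below 0 after centring, at -0.56, and was -0.69 over transcripts of at least 400 bases. Phosphatase hosts (3 transcripts) had a median of -1.33, with 3 lower, beside 80.0% of the table. Ctdsp1 had 3.15 FPKM in NCD and 1.19 in HFD, Ptp4a1 1.61 and 0.562, and Ptpra 2.37 and 1.24.

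Vesicle and secretion hosts had a median of -0.85 over 5 transcripts, with 4 lower and 2 2-fold lower, and -1.16 over 4 without Dnmt3a, a DNA methyltransferase. Over the 4 of at least 400 bases, which leaves out Tmed4, it was -0.51. Rims2, an active-zone protein of exocytosis, had 3.09 FPKM in NCD and 1.05 in HFD, Exoc4, of the exocyst, 2.48 and 1.33, and Scg3, secretogranin 3, 1.75 and 1.55. The Rims2 transcript touched only an exon of a non-coding isoform. Kinase hosts (11) had a median of -0.69, with 9 lower (-0.71 over 10 without Cdk2ap1). RNA processing hosts (7) had a median of -0.71, with 6 lower and 3 2-fold lower. Mbnl2, a splicing regulator, had 4.25 and 1.91 FPKM, while Ints5, of the Integrator complex, had 0.728 and 1.32. The only host matched as an ion channel, Kcnab1, a potassium channel subunit, had 1.49 and 0.424 FPKM (-1.60).

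Adhesion and matrix hosts had a median of -0.62 over 8 transcripts, with 3 2-fold lower and 2 2-fold higher. The 2 higher were the overlapping Csmd3 transcripts of 1 locus. At the highest levels, a Cntn1 transcript had 3.15 FPKM in NCD and 2.13 in HFD (-0.54), and Ncam1 had 2.34 and 1.40 (-0.70). Col4a1, a basement membrane collagen, had 1.16 FPKM in NCD and 0.386 in HFD, Lamb2, a laminin chain, 2.21 and 0.819, and Cdh2, N-cadherin, 0.846 and 0.332. Receptor and G protein hosts (10) had a median of -0.49 (-0.20 over 8 of at least 400 bases), with 6 lower and 3 2-fold lower. They include Pde8a and Rapgef1, which are neither receptors nor G proteins, and no median without these was computed. Chromatin hosts (12) had a median of -0.49 (-0.57 over 11 without Brd3os), with 2 2-fold lower and 2 2-fold higher: Hdac4, a histone deacetylase, had 0.913 and 0.264 FPKM, and H2afy2, a histone variant, had 0.709 and 1.92. Hosts matched for cell cycle and DNA repair (4) had a median of -0.43, with 4 lower, beside 80.0% of the table. Hpf1 (-3.25) and Aptx, described above as acting in DNA repair, were not among the matched symbols. Ubiquitin pathway hosts (7) had a median of -0.42, from Ube3c, a ubiquitin ligase, with 10.8 and 3.27 FPKM to Dcaf12, a ligase adaptor, with 1.57 and 3.34. Over its 6 transcripts of at least 400 bases, without the 375-base Rnft1 transcript, the median was 0.0525. With 4 lower and 3 higher of 7, the family's direction is not settled.

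Medians above 0 were found in 2 families. Small GTPase hosts, with their regulators, had 6 higher and 5 lower of 11, at a median of 0.29 (0.32 over 9 without Raly and Tbce, and 0.15 over 10 of at least 400 bases). Tiam1, an exchange factor for Rac, had 0.582 FPKM in NCD and 1.30 in HFD, Srgap2, a GTPase-activating protein, 1.32 and 2.34, and Dennd4c, an exchange factor for Rab10, 4.54 and 1.99. Lipid and glucose metabolism hosts had 5 higher and 2 lower of 7, at a median of 0.33. Without Apool, Gpatch8 and Ldlrad4, which are not enzymes of this metabolism, the median of 4 was 0.55. None of the 7 passed 2-fold. Acot11, an acyl-CoA thioesterase, hosted 2 transcripts of 1 locus with 2.21 and 3.87 FPKM, and 0.252 and 0.471.

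The medians of the other families lay between -0.40 and -0.15. These were cytoskeleton (15 transcripts, -0.15), translation (5, -0.28, or -0.13 over 4 without the kinase Rps6ka5), mitochondria (4, -0.35, or -1.51 over the 2 of at least 400 bases) and solute carriers (6, -0.40, or -0.03 over 5). The 149 transcripts whose hosts were in no family had a median of -0.37 and the 136 in a family a median of -0.49. Families are small and overlap in the genes' positions along transcripts, and no family was tested against another.

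**Figure D5:**
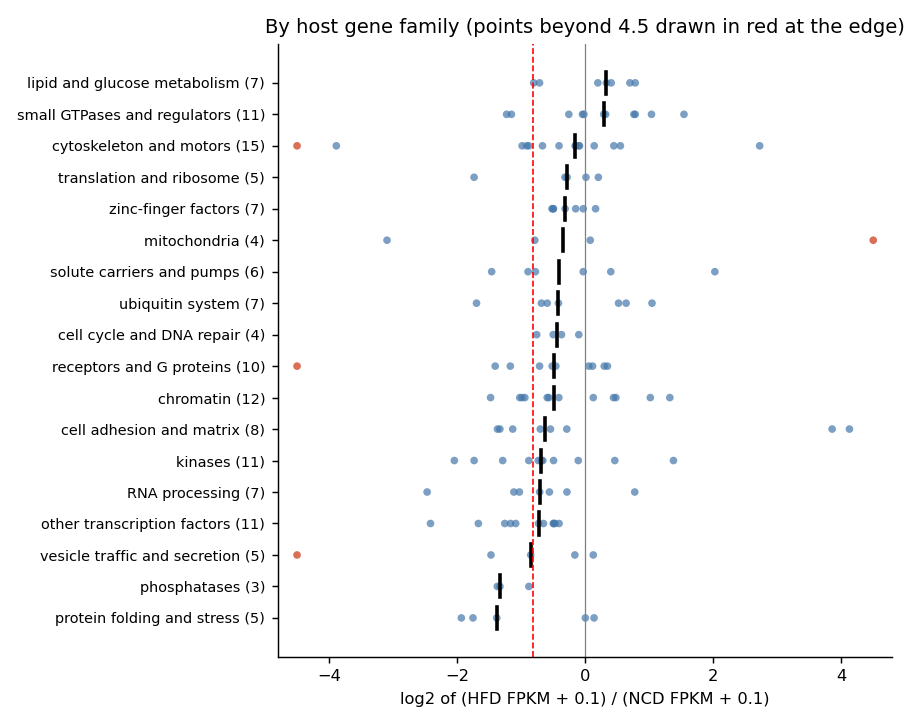
Log2 ratio of HFD over NCD for each transcript by host gene family, for the families with at least 3 transcripts, with medians as bars, the table's median as a dashed line and values beyond the axis drawn in red at its edge. Medians range from -1.38 for protein folding and stress to 0.33 for lipid and glucose metabolism.

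Genes that held several transcripts over their exons allowed a look at spread within a gene. In 21 genes with 2 transcripts, both lay on the same side of 0 in 19, and the median absolute difference was 0.37 on the log2 scale. All 12 pairs from the same assembled locus had the same direction, though such pairs can share reads. Of 9 pairs from different loci 7 did, and the Cntn1 and Urgcp pairs among the 9 overlap as well. These counts are read beside the 69.8% of the 285 transcripts that were lower in HFD, since unrelated transcripts often share a direction too. Rnf180, a ubiquitin ligase, had -0.42 and 0.52, and Urgcp had -0.56 and 0.80. Pax6, a homeobox factor of islet cells, hosted 1 transcript over a first exon with 0.926 FPKM in NCD and 0.674 in HFD (-0.41), and 1 over a last exon with 3.10 and 2.17 (-0.49). Rora, a nuclear receptor, had 5.35 and 3.83 FPKM (-0.47) over its first exon and 3.59 and 1.64 FPKM (-1.08) in its other transcript.

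Sequence shared with other genes was counted as 31-base words of the touched exon bases. Of 276 transcripts that could be counted, 229 shared no word with the annotated transcripts of other genes, and 16 shared more than 20%. The median log2 ratio of those 16 was -0.09. Among them the 2 Gpr137b transcripts shared 75.6% and 88.6% of words, most with the Gpr137b-ps pseudogene, and a Hipk2 transcript shared 99.3% with Ubn2.

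The depth behind the values was estimated from the steps between low FPKM values of transcripts of 300 to 700 bases. The fit gave totals of 54000000 fragments for NCD and 74500000 for HFD, with mean fragments of 272 and 276 bases. A fit to a random part of the values gave the same HFD total but 58750000 for NCD, so the NCD depth is the less certain. Of the values left out of that fit, 42 of 69 (60.9%) in NCD and 102 of 124 (82.3%) in HFD came out within 0.15 of a whole fragment, where values without steps would give 30%. At 400 bases 1 fragment was then worth 0.144 FPKM in NCD and 0.107 in HFD. For 58 transcripts of 400 to 1000 bases, medians of 40.7 and 34.7 fragments were estimated. Counting intervals (95%) of the log2 ratio lay below 0 in 27 of these, above 0 in 4 and included 0 in 27. Such intervals were not computed for the rest of the table. As 80.0% of the table was lower in HFD, these counts do not set the 58 transcripts apart. Ccdc88b, at 3.85 and 41.2 fragments, had an interval of the log2 ratio of 1.46 to 4.87, and Slc35e1 had 1.35 to 3.44. These intervals cover counting error only, assume unspliced transcripts, and say nothing of the spread between mice.

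Of 18 beta cell genes, exons of 2 were touched (Pax6 and Isl1, by 3 transcripts). No exon was touched of the 5 alpha, 2 delta, 1 PP, 9 acinar, 6 duct, 4 endothelial, 5 stromal or 5 immune cell genes listed, so the tissue label cannot be checked from this table.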

How the data were processed

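Total RNA of mouse islets was measured by sequencing in 3 libraries per diet (6 in all). The authors deposited 1 table with a transcript identifier, an interval and 1 FPKM value per diet group, per the file headers. How the 3 libraries were combined, and by which aligner, assembler and quantifier, is not given in the sources used here. Genome builds GRCm38 and mm10 are named per the submitters' processing notes. Library totals are unknown, and the depths printed are estimates. Intervals were compared as 1-based coordinates with GENCODE M21 exons in Python 3.11.15 with pandas 2.3.3, numpy 2.4.6 and scipy 1.17.1. The host was the coding gene sharing most exon bases. The representative transcript was chosen among touched transcripts by coding type, APPRIS tag, then length. A minimum of 0.1 FPKM in at least 1 diet excluded 0 transcripts. No test across libraries was possible with 1 value per group, so no p-value is given.

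Named transcripts were the 8 highest and 8 lowest ratios (above 0 in both diets, at least 400 bases), the 8 highest levels, the 2 highest levels of each exon class and of each family with at least 3 transcripts, and all islet cell type genes, 59 in all over 57 hosts. Examples beyond that rule in the family paragraphs, Rtn2, Tcof1 and the genes with 2 transcripts were picked with their values in view. The set, the families and the lists were chosen with earlier results of these data known. Alternatives covered the pseudocount (0.01 and 1), centring, quantile normalization, the fold rule, the filters and the exon rank. Leaving out hosts that did not belong and transcripts sharing over 20% of 31-base words was added after seeing the data. The depth fit was tested on simulated data. The values of some host genes are not reported here.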

Additional observations from a re-analysis of the deposited data

How the results depend on the processing

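No paired analysis was possible because each diet has a lone deposited column, and leaving out each library was not run for the same reason. With 1 FPKM added, 23 transcripts (8.07%) were 2-fold lower and 7 (2.46%) were 2-fold higher, beside 22.3% and 3.27% of the table. The phosphatase median was then -0.74. With a 4-fold rule the counts were 14 (4.91%) and 7 (2.46%), beside 11.8% and 2.91% of the table. Over the 155 transcripts touching coding sequence, 28 (18.1%) and 11 (7.10%) passed 2-fold, beside 41.9% and 6.27% of the table.

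Centring on the table's median gave 18 lower and 69 higher, beside 15.0% and 15.9% of the table. The median was then 0.41 for all, and 0.56 (first), 0.30 (inner), 0.31 (last), 0.40 (several) and 0.88 (single exon). Family medians were then zinc finger 0.51, other transcription factors 0.0907, chromatin 0.33, RNA processing 0.11, translation 0.54, mitochondria 0.47, solute carriers 0.42, receptors 0.33, kinases 0.13, phosphatases -0.51, ubiquitin 0.40, small GTPases 1.11, vesicle -0.0316, cytoskeleton 0.67, adhesion 0.20, cell cycle 0.38, stress -0.56 and lipid and glucose 1.15. Quantile normalization gave 16 lower (5.61%) and 69 higher (24.2%), beside 14.9% and 16.2% of the table. It gave medians of 0.41 for all, and 0.55, 0.32, 0.30, 0.43 and 0.97 by exon class in that order. Its family medians, in that order, were 0.55, 0.0647, 0.32, 0.11, 0.57, 0.49, 0.39, 0.36, 0.10, -0.52, 0.39, 1.11, -0.0547, 0.69, 0.18, 0.38, -0.57 and 1.15. Under both rescalings the phosphatase, vesicle and stress medians stayed below 0.

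With spans of at least 400 bases, the medians were -0.14 (single exon), -1.51 (mitochondria), 0.0525 (ubiquitin), -0.69 (stress), -0.20 (receptors), -0.51 (vesicle) and 0.15 (small GTPases). Reading the exon rank in every coding transcript or in the longest transcript gave -0.14 for single exons. The single-exon and ubiquitin medians thus changed sign with these choices, and 19 of the 59 named transcripts did with centring. Of the named transcripts, 19 moved with 1 FPKM added and 8 with 0.01. Depth limits the short transcripts most, since 1 fragment at 400 bases is worth over 0.1 FPKM.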
